A study of Mus musculus with 16 samples.

Results

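The genes described here are 8 stress hormone and glucocorticoid signalling genes, picked by symbol from 39017 gene rows: Crh, Crhr1, Crhbp, Nr3c1, Nr3c2, Fkbp5, Hsd11b1 and Fkbp4. All 8 were found, each in 1 row, and all 8 carried an adjusted p in each table. Their transcripts were measured in prelimbic cortex (PL) from C57BL/6J mice by viral translating ribosome affinity purification. A virus (AAV-IV-GFPL10) encoding a ribosomal protein fused to green fluorescent protein was injected in PL, and a retrograde virus carrying Cre (CAV-Cre) went into 1 of 3 targets of PL axons: nucleus accumbens (NAc), basolateral amygdala (BLA) or ventral tegmental area (VTA). Anti-GFP beads then pulled down the tagged polysomes (IP), and total RNA from the PL around them served as the comparison (Input). There were 3 IP and 3 Input libraries in the PL-NAc group, 3 and 3 in the PL-BLA group, and 2 and 2 in the PL-VTA group. All 16 libraries came from the same strain, each projection had Inputs of its own, and no IP from uninjected or untagged tissue was analysed here. Tagging depended on uptake of CAV-Cre at the target and not on a cell type promoter, so neurons with branches to several targets can be in more than 1 group. The labels give no age or sex, and whether a replicate is 1 animal or a pool is not stated. The p-values therefore measure only the spread between these libraries, which may be technical.

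Corticotropin-releasing hormone, the Crh product, is best known as the hypothalamic peptide that starts the endocrine stress response, and in the cortex it is made mainly by interneurons. It acts through Crhr1, a receptor coupled to cyclic AMP signalling, and is sequestered by the secreted binding protein encoded by Crhbp. Corticosterone, the glucocorticoid of mice, returns to the brain and binds a high-affinity mineralocorticoid receptor (Nr3c2) and a lower-affinity glucocorticoid receptor (Nr3c1), both of them ligand-activated transcription factors. The enzyme encoded by Hsd11b1 regenerates active glucocorticoid inside cells. The immunophilin encoded by Fkbp5 lowers the affinity of the receptor complex for hormone and is itself induced by glucocorticoid, while the one encoded by Fkbp4 favours transport of the receptor to the nucleus.

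The peptide and its binding protein were lower in the IP of each projection, while the receptor Crhr1 was higher in the IP of the PL-NAc and PL-BLA neurons. By the authors' deposited table, with an adjusted p below 0.05 as the threshold, 1 of the 8 genes was higher and 6 were lower in the PL-NAc IP. Over all genes tested in PL-NAc, 21.4% were called higher and 21.7% lower, and among genes with a mean normalized count of at least 50, which all 8 genes reached, these shares were 31.0% and 24.0%. In PL-BLA 1 of 8 was higher and 5 were lower in the authors' deposited table, against 20.8% and 20.2% of all genes and 29.2% and 22.8% of those with a mean of at least 50. In PL-VTA none was higher and 3 were lower in the authors' deposited table, against 11.0% and 10.5% of all genes and 13.7% and 11.8% of those with a mean of at least 50. The share of the 8 genes called lower was thus above the background in each projection, and the share called higher was below it. With only 8 genes, 1 gene more or less shifts a share widely, so the shortfall of higher calls is no finding. The 8 were also chosen with earlier results of these data known, and the shares are a description. The median log2 fold change of the 8 genes was -0.63, -0.52 and -0.18 in PL-NAc, PL-BLA and PL-VTA, against -0.03, -0.02 and 0.02 over all genes tested.

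**Figure D1:**
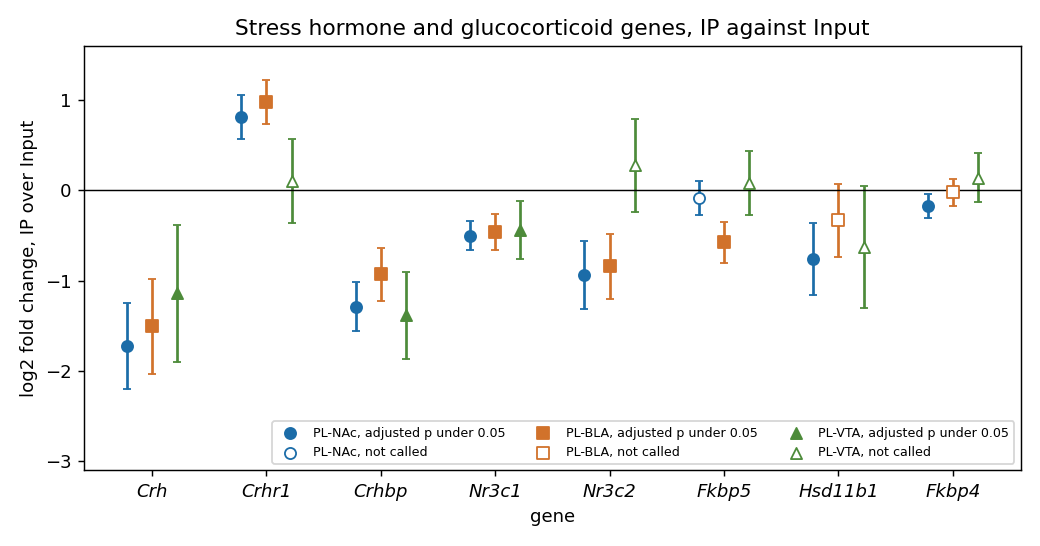
Log2 fold change of IP over Input (vertical axis) for each of the 8 genes (horizontal axis) in the 3 projections, with 95% intervals computed as 1.96 standard errors on each side; filled symbols had an adjusted p under 0.05. Crh, Crhbp and Nr3c1 lie below 0 in each projection, and Crhr1 is the only one of the 8 called higher in any.

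Values in single libraries were not analysed here, so each gene is given as the authors' mean normalized count over the libraries of a projection, their log2 fold change and its standard error (SE). The summed means were 15437849 normalized counts for PL-NAc, 16347808 for PL-BLA and 16520414 for PL-VTA, which stand for the depth of an average library. Among genes whose mean reached 50 the median SE was 0.12, 0.13 and 0.22 in the same order, so PL-VTA, with fewer libraries, could show only larger changes. For the 8 genes the SE was 0.97 to 1.13 times the median SE of the 200 genes nearest in mean. The deposited SE of each of the 8 was thus close to that of genes of like abundance. This compares SEs only and does not show how the 8 varied between libraries.

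Crh (ENSMUSG00000049796, GRCm38 chromosome 3, 19693401 to 19695396, minus strand) had the lowest counts of the 8, with means of 101, 82.4 and 78.9 in PL-NAc, PL-BLA and PL-VTA in the authors' deposited table. Its log2 fold change was -1.72 (SE 0.24) in PL-NAc, with an adjusted p of 2.1e-11 by DESeq2 in the authors' deposited table. In PL-BLA it was -1.51 (SE 0.27, DESeq2 adjusted p 1.2e-07), and in PL-VTA -1.14 (SE 0.39, DESeq2 adjusted p 0.0186), in the authors' deposited table. The IP thus held 30.3% (95% interval 21.7 to 42.3), 35.2% (24.5 to 50.5) and 45.3% (26.8 to 76.6) of the Input level. The 3 intervals overlap widely, and the peptide's transcript was depleted but not lost from the polysomes of each projection.

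Crhbp (ENSMUSG00000021680, chromosome 13, 95431371 to 95444924, minus strand) moved the same way as the peptide it binds, at higher counts, with means of 361, 385 and 338 in the authors' deposited table. Its log2 fold change was -1.29 (SE 0.14) in PL-NAc and -0.93 (SE 0.15) in PL-BLA, by the authors' deposited table. In PL-VTA it was -1.38 (SE 0.25), in the authors' deposited table. The DESeq2 adjusted p were 2.7e-19, 4.7e-09 and 6.5e-07 for PL-NAc, for PL-BLA and for PL-VTA in the authors' deposited table. The IP held 40.9%, 52.4% and 38.3% of the Input level.

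Crh and Crhbp moved together with markers of inhibitory neurons, whose part in their decrease was not tested. Of 20 such markers, 18, 18 and 14 fell in PL-NAc, PL-BLA and PL-VTA in the authors' deposited table, with 2, 1 and 0 higher, and medians of -1.69, -1.36 and -1.25. None of the 20 was at 0. Their summed approximate level in the IP was 68.1%, 81.0% and 54.2% of that in Input, with sums of 25045 against 36752, 31669 against 39110 and 21343 against 39347 normalized counts. The most abundant marker, Cck, a peptide gene that cortical excitatory neurons also express, was 0.92 (SE 0.07), 1.21 (SE 0.07) and -0.50 (SE 0.16) by the authors' deposited table. Without Cck, a choice made after its values were seen, the sums were 38.7%, 45.6% and 50.2% of Input. Vip, a peptide of an interneuron class in which cortical Crh is often found, was -2.61 (SE 0.13), -2.48 (SE 0.14) and -2.56 (SE 0.21) in PL-NAc, PL-BLA and PL-VTA in the authors' deposited table. Sst, the somatostatin gene of another class, was 0.26 (SE 0.09), -0.53 (SE 0.09) and -1.69 (SE 0.19), by the authors' deposited table, and Pvalb was -3.48, -3.02 and -2.65. Among the enzymes of GABA synthesis, Gad1 was -1.24, -0.70 and -0.63 and Gad2 -1.40, -0.84 and -0.20 in the authors' deposited table, the last with an SE of 0.42 and not called. By their fold changes, Crh and Crhbp were less depleted than Vip and Pvalb in each projection. Crh was more depleted than Gad1 and Gad2 in each, and Crhbp more than Gad1. The differences between genes were not tested. In tissue and polysome RNA of this kind, fewer cells of a type and less of a transcript per cell cannot be told apart.

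Crhr1 (ENSMUSG00000018634, chromosome 11, 104132855 to 104175523, plus strand) had means of 503, 507 and 364 in PL-NAc, PL-BLA and PL-VTA in the authors' deposited table. The receptor was 1.76-fold higher in the PL-NAc IP than in Input (log2 0.81, SE 0.12, DESeq2 adjusted p 3.0e-10) in the authors' deposited table. In PL-BLA it was 1.97-fold higher (log2 0.98, SE 0.13, DESeq2 adjusted p 1.7e-13) in the authors' deposited table. In PL-VTA it was not called, at 0.10 (SE 0.24, DESeq2 adjusted p 0.834) in the authors' deposited table, and the interval of -0.37 to 0.57 does not exclude a modest change. Among genes with a mean of at least 50, its fold change stood above 95.8%, 98.1% and 53.6% of them in PL-NAc, PL-BLA and PL-VTA. The receptor transcript was therefore high where the transcript of its ligand was low, in both telencephalic projections. The vesicular glutamate transporter Slc17a7, a marker of excitatory neurons, was 0.62 (SE 0.06), 0.75 (SE 0.06) and 0.16 (SE 0.12) in the same order in the authors' deposited table. Of 15 excitatory markers, 9, 9 and 3 were higher and 3, 4 and 4 lower by the authors' deposited table, and the medians were 0.52, 0.41 and 0.16. None of these was at 0, and their part in the values of Crhr1 was not tested. With each table centred on these medians, Crhr1 was 0.30 in PL-NAc (adjusted p 0.0270, Wald z on DESeq2 estimates, computed here). In PL-BLA Crhr1 was then 0.57 (adjusted p 2.5e-05, Wald z on DESeq2 estimates). Both were still past the threshold but smaller, and the centred value in PL-VTA was -0.058. This centring takes the same amount off every gene of a table and treats the marker median as free of error.

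Nr3c1, the glucocorticoid receptor gene (ENSMUSG00000024431, chromosome 18, 39410545 to 39519421, minus strand), was moderately lower in each IP. Its means were 1325, 1528 and 1451 in PL-NAc, PL-BLA and PL-VTA in the authors' deposited table. The log2 fold change was -0.50 (SE 0.08), -0.46 (SE 0.10) and -0.43 (SE 0.16), with DESeq2 adjusted p of 1.4e-08, 2.4e-05 and 0.0384, in the authors' deposited table. The IP held 70.6%, 72.5% and 74.0% of the Input level, a range of a few percentage points that lies inside each interval. The call in PL-VTA was lost when p-values were adjusted over all genes with a p (adjusted p 0.0562, Wald test of DESeq2). Centred on excitatory markers, which lowers every gene of these tables, Nr3c1 was -1.02 in PL-NAc and -0.87 in PL-BLA.

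Nr3c2, the mineralocorticoid receptor gene (ENSMUSG00000031618, chromosome 8, 76899442 to 77245012, plus strand), split the projections. Its means were 167, 199 and 285 in PL-NAc, PL-BLA and PL-VTA in the authors' deposited table. In PL-NAc it was -0.94 (SE 0.19, DESeq2 adjusted p 5.9e-06) and in PL-BLA -0.84 (SE 0.18, DESeq2 adjusted p 2.7e-05) in the authors' deposited table. In PL-VTA it was 0.28 (SE 0.26, DESeq2 adjusted p 0.530) by the authors' deposited table, and was not called. The IP held 52.2%, 55.9% and 121% of the Input level, the last with a 95% interval of 84.7 to 173. The exons of Nr3c2 share 247 of 6474 bases with those of Gm10649, a noncoding gene on the opposite strand, and the library kit does not mark strand. Gm10649 had means of 2.69, 4.07 and 5.33 in the authors' deposited table.

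Hsd11b1 (ENSMUSG00000016194, chromosome 1, 193221634 to 193264075, minus strand), which raises active glucocorticoid within cells, was -0.76 (SE 0.20, DESeq2 adjusted p 7.6e-04) in PL-NAc in the authors' deposited table. It was -0.33 (SE 0.21) in PL-BLA and -0.63 (SE 0.35) in PL-VTA, neither of them called (DESeq2 adjusted p 0.200 and 0.202), in the authors' deposited table. Its means were 142, 158 and 176 in the authors' deposited table. The 95% intervals of the IP level, 44.8 to 78.0% of Input in PL-NAc, 60.1 to 105% for PL-BLA and 40.4 to 103% for PL-VTA, overlapped one another. Centred on excitatory markers, Hsd11b1 was -1.27 in PL-NAc and -0.74 in PL-BLA, both past the threshold. That centring took 0.52 and 0.41 off every gene, and the share of all genes then past the threshold was not analysed here.

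Of the co-chaperones of the receptor complex, Fkbp5 (ENSMUSG00000024222, chromosome 17, 28399094 to 28517527, minus strand) was lower only by the call in PL-BLA, at -0.57 (SE 0.12, DESeq2 adjusted p 4.0e-06) in the authors' deposited table. It was -0.08 (SE 0.10) in PL-NAc and 0.08 (SE 0.18) in PL-VTA, not called in either (DESeq2 adjusted p 0.538 and 0.820), in the authors' deposited table. Its means were 830, 903 and 1066 in the authors' deposited table, and the PL-BLA IP held 67.2% of Input (95% interval 57.4 to 78.5). Fkbp4 (ENSMUSG00000030357, chromosome 6, 128429735 to 128438677, minus strand) was the most abundant of the 8, with means of 3667, 3596 and 3962 in the authors' deposited table. It was -0.17 (SE 0.07, DESeq2 adjusted p 0.0245) in PL-NAc, and then -0.02 (SE 0.07) in PL-BLA and 0.14 (SE 0.14) in PL-VTA in the authors' deposited table. Only the first was called, at 88.6% of Input, and the intervals of the other projections reached from 89.0 to 109% and from 91.5 to 133%. Centred on excitatory markers, Fkbp5 was -0.60 in PL-NAc and -0.98 in PL-BLA and Fkbp4 -0.69 and -0.43, each past the threshold. In PL-VTA they were -0.078 and -0.019 and did not pass. The centring took 0.52, 0.41 and 0.16 off every gene in PL-NAc, PL-BLA and PL-VTA. How many of all genes then passed was not analysed here, so these added calls are no finding about Fkbp5 or Fkbp4.

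Levels of the 8 genes were compared per kilobase of annotated exon, as the mean of IP and Input together. Fkbp4 stood far above the rest, at 1312, 1287 and 1418 normalized counts per kb in PL-NAc, PL-BLA and PL-VTA. Crhr1, Crhbp and Nr3c1 came next, from 148 to 214 per kb in the 3 tables, and changed places between them. Fkbp5 followed at 87.7, 95.3 and 113 per kb and Crh at 76.7, 62.4 and 59.8. Hsd11b1 at 33.5, 37.2 and 41.3 per kb and Nr3c2 at 25.7, 30.8 and 44.1 were lowest, and exchanged their places in PL-VTA. Spread between libraries was not analysed for these levels, so the order of neighbours was not tested. The tables were normalized separately, and the levels are given beside each other and not compared across them.

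**Figure D2:**
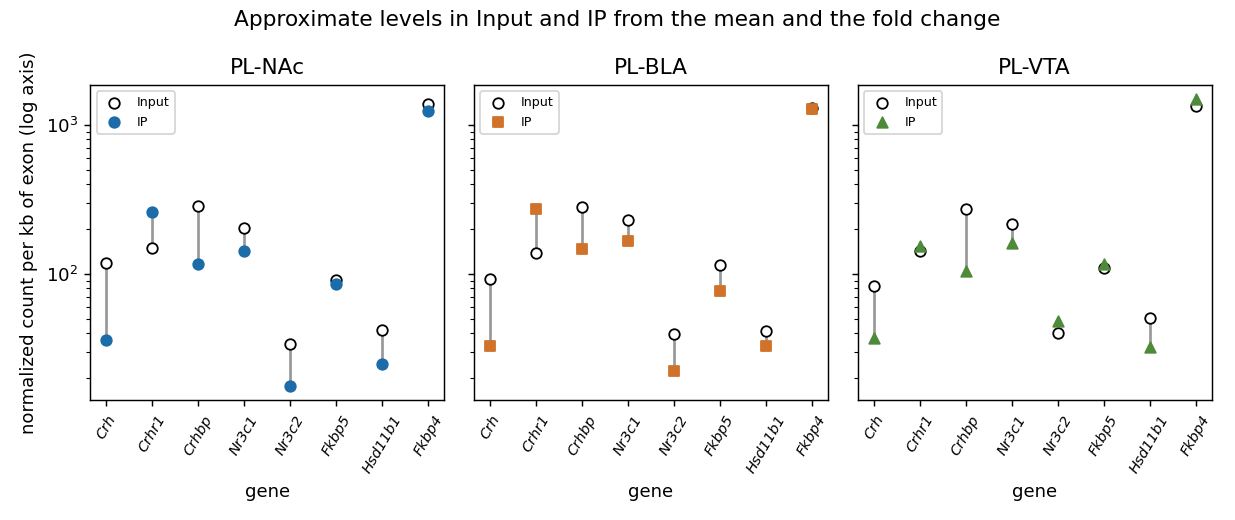
Approximate levels in Input (open circles) and IP (filled symbols), in normalized counts per kb of exon on a log axis, for the 8 genes (horizontal axis) in each projection, worked out from the mean and the deposited log2 fold change with no error shown. In the Input of PL-NAc, Crhbp was at 285 and Crhr1 at 148 per kb; in the IP they were at 117 and 260.

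Split into IP and Input by the fold change, the order of Crhr1 and Crhbp turned over between the 2 fractions of PL-NAc. In Input the binding protein was at 285 per kb and the receptor at 148, while in the IP they were at 117 and 260. The same was seen in PL-BLA, with 281 and 139 in Input and 147 and 274 in the IP, and in PL-VTA with 272 and 143 in Input and 104 and 153 in the IP. The ligand Crh was at 118, 92.3 and 82.3 per kb in the 3 Inputs and at 35.7, 32.5 and 37.3 in the 3 IPs. These levels are approximate, since the deposited fold changes are shrunken toward 0.

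Whether the enrichment of a gene differed between projections was tested with a two-sided Wald z on the difference of the log2 fold changes. Adjustment was over 18211, 17980 and 17671 genes for PL-NAc against PL-BLA, PL-NAc against PL-VTA and PL-BLA against PL-VTA. These differences passed for 1.45%, 2.84% and 3.89% of all genes in that order, and for 0, 1 and 2 of the 8. Each pair of comparisons with a common projection also has that projection's libraries in common.

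Nr3c2 differed between PL-VTA and both other projections. It was 1.22 lower on the log2 scale in PL-NAc than in PL-VTA (difference -1.22, SE 0.33, adjusted p 0.0106, Wald z on DESeq2 estimates), with -0.94 in the first and 0.28 in the second. Between PL-BLA and PL-VTA the difference was -1.12 (SE 0.32, adjusted p 0.0167, Wald z on DESeq2 estimates). These differences correspond to 2.32-fold and 2.17-fold. Between PL-NAc and PL-BLA it was -0.10, with a 95% interval of -0.62 to 0.42.

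Crhr1 was 0.88 higher in PL-BLA than in PL-VTA (SE 0.27, adjusted p 0.0331, Wald z on DESeq2 estimates), a 1.84-fold difference in enrichment. With each table centred on the median of its excitatory markers this difference was 0.63 and no longer passed (adjusted p 0.168, Wald z on DESeq2 estimates). Of those 15 markers, 7 themselves differed between PL-BLA and PL-VTA. Between PL-NAc and PL-VTA the uncentred difference of Crhr1 was 0.71 (SE 0.27) and did not pass (adjusted p 0.180, Wald z on DESeq2 estimates). Its interval of 0.18 to 1.24 lay above 0. Between PL-NAc and PL-BLA the receptor differed by -0.17, with an interval of -0.51 to 0.18.

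Fkbp5 missed the threshold narrowly in the contrasts that set PL-BLA apart. It was 0.49 higher in PL-NAc than in PL-BLA (SE 0.15, adjusted p 0.0722, Wald z on DESeq2 estimates) and 0.66 lower in PL-BLA than in PL-VTA (difference -0.66, SE 0.21, adjusted p 0.0519, Wald z on DESeq2 estimates). Among only the genes with a mean of at least 50 in both tables, both passed (adjusted p 0.0490 and 0.0388, Wald z on DESeq2 estimates). The other 5 genes passed in no pair uncentred. Fkbp4 between PL-NAc and PL-VTA was -0.32 (SE 0.15, adjusted p 0.464, Wald z on DESeq2 estimates). Centred on excitatory markers, a shift that every gene shares, Fkbp4 was -0.67 (adjusted p 5.3e-04, Wald z on DESeq2 estimates). That p takes the marker medians as known, and 7 of the 15 markers themselves differed between these 2 projections. The intervals of Crh reached from -0.92 to 0.49 between PL-NAc and PL-BLA, from -1.48 to 0.32 between PL-NAc and PL-VTA, and from -1.28 to 0.55 between PL-BLA and PL-VTA. Those of Nr3c1 reached from -0.29 to 0.22, from -0.43 to 0.29 and from -0.41 to 0.35 in the same order.

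Markers of other cells also differed between projections, and their part in these differences was not tested. The medians over 12 astrocyte markers were -1.78, -1.13 and -1.29 in PL-NAc, PL-BLA and PL-VTA, over 12 oligodendrocyte markers -3.11, -2.32 and -2.38, and over 12 microglial markers -2.47, -1.86 and -1.94. Of 14 vascular markers 8, 9 and 5 fell and 0, 1 and 0 rose by the authors' deposited table, and the medians were -1.15, -1.12 and -0.88. Of 12 astrocyte, 12 oligodendrocyte and 12 microglial markers, 7, 7 and 2 differed between PL-NAc and PL-BLA at an adjusted p under 0.05 (Wald z). These counts were 3, 5 and 0 between PL-NAc and PL-VTA, and 1, 0 and 0 between PL-BLA and PL-VTA. Of 20 inhibitory markers 6, 9 and 5 differed in the same order of pairs, of 15 excitatory markers 4, 7 and 7, and of 14 vascular markers 0, 0 and 1.

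**Figure D3:**
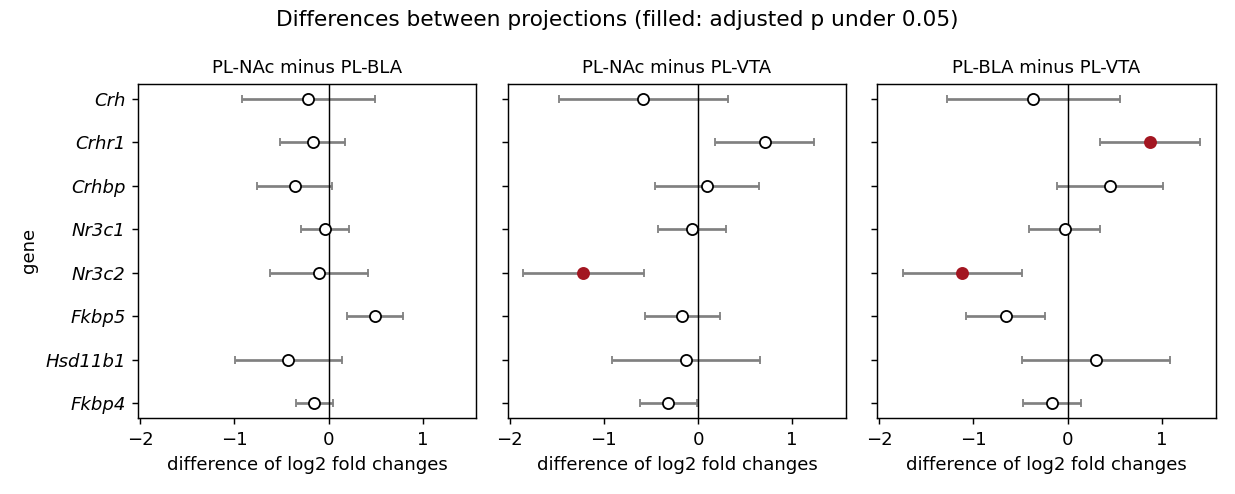
Difference of the log2 fold changes between 2 projections (horizontal axis) for the 8 genes (vertical axis), with 95% intervals; filled points had an adjusted p under 0.05. Nr3c2 lies at -1.22 and -1.12 against PL-VTA, and Crhr1 at 0.88 for PL-BLA against PL-VTA.

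The remaining genes of the pathway were taken as 6 lists. The first holds chaperones, co-chaperones and immunophilins grouped as steroid receptor chaperones. Whether each of them acts on a steroid receptor was not tested. The co-chaperone genes Fkbp4 and Fkbp5, described above, are not in this list. Fkbp4 was called lower in PL-NAc (-0.17) and Fkbp5 in PL-BLA (-0.57) in the authors' deposited table, and neither was called in the other projections. Of 18 chaperone genes 14 were higher in PL-NAc, as were 14 in PL-BLA and 9 in PL-VTA, by the authors' deposited table. None was lower and 4, 4 and 9 were not called, and the medians were 0.38, 0.54 and 0.47. Among all genes with a mean of at least 50, which each of the 18 reached, 31.0%, 29.2% and 13.7% were called higher. The shares called lower were 24.0%, 22.8% and 11.8%. Hsp90ab1, the constitutive HSP90, was 0.86 (SE 0.06), 0.95 (SE 0.07) and 0.79 (SE 0.12) in PL-NAc, PL-BLA and PL-VTA in the authors' deposited table. The inducible form Hsp90aa1 was 0.76 (SE 0.07), 0.97 (SE 0.08) and 0.94 (SE 0.13), by the authors' deposited table. Hspa8, a constitutive HSP70, was 0.65 (SE 0.06), 0.89 (SE 0.07) and 0.65 (SE 0.13) in the same order, in the authors' deposited table. The small immunophilin Fkbp1a was 0.60 (SE 0.06), 0.58 (SE 0.06) and 0.67 (SE 0.12), and both genes were called in each projection, in the authors' deposited table.

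Genes known to be induced by glucocorticoid were mostly lower in the IP. Of 24 in the list, 17 fell and 5 rose in PL-NAc, 16 fell and 4 rose in PL-BLA, and 12 of 23 tested fell and 1 rose in PL-VTA, in the authors' deposited table. Their medians were -1.15, -0.84 and -0.80. Over all genes tested, 21.7%, 20.2% and 10.5% were called lower and 21.4%, 20.8% and 11.0% higher in PL-NAc, PL-BLA and PL-VTA. Fam107a, an actin-associated stress-induced gene, was -3.72 (SE 0.09), -2.96 (SE 0.10) and -2.98 (SE 0.16), by the authors' deposited table. The metallothionein genes Mt1 and Mt2, whose products bind metals, were called in each projection. Mt1 was -1.90 (SE 0.15), -1.85 (SE 0.09) and -1.51 (SE 0.15) in PL-NAc, PL-BLA and PL-VTA in the authors' deposited table. Mt2 was -2.59 (SE 0.14), -2.21 (SE 0.26) and -2.35 (SE 0.22), by the authors' deposited table. Glul, which encodes glutamine synthetase, was -1.61 (SE 0.08), -1.07 (SE 0.10) and -0.99 (SE 0.18) in the same order, in the authors' deposited table. Tsc22d3, which encodes the glucocorticoid-induced leucine zipper, was -1.17 (SE 0.07), -0.85 (SE 0.07) and -0.55 (SE 0.14). Both were called in each projection, in the authors' deposited table. Fam107a, Glul, Mt1 and Mt2 are also well known from astrocytes, of whose 12 markers 12, 11 and 11 fell in the authors' deposited table. The summed approximate level of those markers was 13229 normalized counts in the IP and 39269 in the Input of PL-NAc, 21826 and 41063 in PL-BLA, and 17787 and 41327 in PL-VTA, with none at 0. Their part in the values of this list was not tested.

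The 1 glucocorticoid response element found by exact letters in these promoters is shown because it marks a textbook target of the receptors. The palindrome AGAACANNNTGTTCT, which reads the same on both strands, was searched in windows from 250 bases before to 50 after each start in RefSeq (GRCm38.p6). It was present in 3 of 32851 windows (0.00913%), in none of the 6 windows found for the 8 genes (Crhr1, Crhbp, Nr3c2, Fkbp5, Hsd11b1 and Fkbp4), and in 1 of 34 windows of 21 glucocorticoid-induced genes. That window belongs to 1 of the starts of Sgk1, a kinase that both corticosteroid receptors induce, and the element, in capitals, begins 189 bases before it. The stretch printed, with 7 bases on each side of the element, is chr10:21993694-21993722 on the plus strand.
Sgk1: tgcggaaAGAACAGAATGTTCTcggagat
Sgk1 itself fell in each IP, at -1.12 (SE 0.08), -0.997 (SE 0.09) and -0.80 (SE 0.15), by the authors' deposited table. The clock gene Per1, another induced gene, was 0.59 (SE 0.12) and 0.47 (SE 0.13) in PL-NAc and PL-BLA, where it was called, and 0.25 (SE 0.24) in PL-VTA, where it was not, in the authors' deposited table. Sgk1 and Per1 were added to the named genes after their values were seen. A match of letters describes this window alone.

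**Figure D4:**
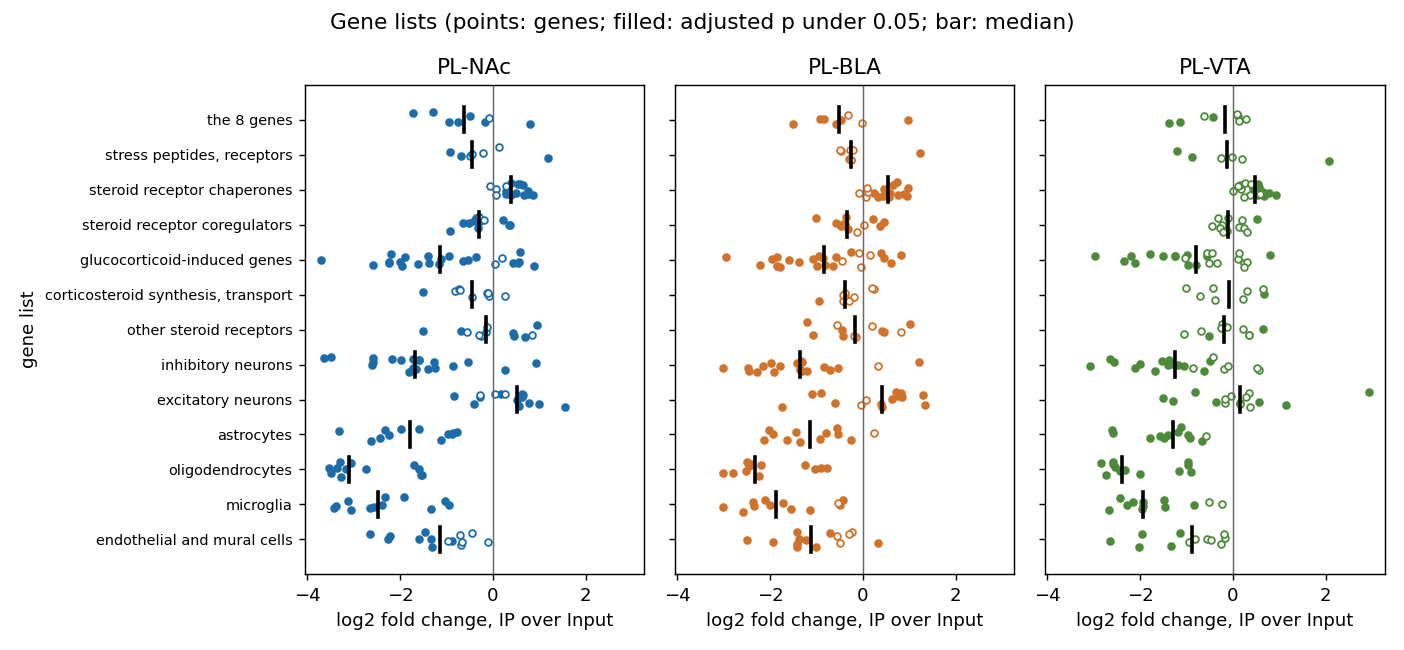
Log2 fold change of IP over Input (horizontal axis) for each tested gene of the 8 and of 12 lists (vertical axis) in the 3 projections; filled points had an adjusted p under 0.05 and black bars are medians. Most chaperones lie to the right of 0 and most glucocorticoid-induced genes to the left, as do most of the inhibitory, astrocyte, oligodendrocyte, microglial and vascular markers.

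Coregulators, which link the receptors to chromatin, were more often lower than higher in both telencephalic projections. Of 12, 7 fell and 3 rose in PL-NAc, 7 fell and 3 rose in PL-BLA, and 0 fell and 1 rose in PL-VTA, by the authors' deposited table. The medians were -0.31, -0.34 and -0.11. Among all genes with a mean of at least 50, which each of the 12 reached, 24.0%, 22.8% and 11.8% were called lower. The shares called higher were 31.0%, 29.2% and 13.7%. Ppargc1a, a coactivator of mitochondrial genes, was -0.93 (SE 0.10) in PL-NAc and -1.01 (SE 0.10) in PL-BLA in the authors' deposited table. Ncoa2, a p160 coactivator, was -0.52 (SE 0.11) in PL-NAc and -0.36 (SE 0.11) in PL-BLA, both called, in the authors' deposited table. The remodelling ATPase gene Smarca4 was 0.37 (SE 0.07) in PL-NAc and 0.37 (SE 0.08) in PL-BLA in the authors' deposited table. The deacetylase gene Hdac3 was 0.34 (SE 0.08) in PL-NAc and 0.45 (SE 0.08) in PL-BLA, both called, in the authors' deposited table. Nrip1, a corepressor, was -0.42 (SE 0.12) in PL-NAc, -0.48 (SE 0.11) in PL-BLA and 0.51 (SE 0.19) in PL-VTA, each of them called, in the authors' deposited table.

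Among 13 genes of the CRH family, other stress peptides and their receptors, 7, 8 and 6 had enough counts to be tested in PL-NAc, PL-BLA and PL-VTA. Of these 1, 1 and 1 rose and 2, 1 and 2 fell by the authors' deposited table, and the medians were -0.44, -0.26 and -0.13. Over all genes tested, 21.4%, 20.8% and 11.0% were called higher and 21.7%, 20.2% and 10.5% lower, so these few calls are a description. Adcyap1, which encodes the peptide PACAP, rose in each, at 1.19 (SE 0.12), 1.22 (SE 0.12) and 2.08 (SE 0.21), while the gene of its receptor, Adcyap1r1, fell at -0.69 (SE 0.13), -0.30 (SE 0.10) and -0.88 (SE 0.21), by the authors' deposited table. The oxytocin receptor gene Oxtr was -0.93 (SE 0.25) in PL-NAc and -1.21 (SE 0.37) in PL-VTA in the authors' deposited table. Crhr2, the second CRH receptor, had means of 14.2, 15.4 and 15.0 and was not called, and the ligand gene Ucn2 was listed at 0, in the authors' deposited table. Crhr1 was thus the CRH receptor with appreciable counts in these libraries.

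Of 13 genes for corticosteroid synthesis, inactivation and transport, 9, 9 and 8 were tested. None rose and 1 fell in PL-NAc, none rose and 1 fell in PL-BLA, and 1 rose and none fell in PL-VTA, by the authors' deposited table, and the medians were -0.45, -0.38 and -0.09. The gene that fell was Akr1c18, a steroid reductase, at -1.51 (SE 0.29) in PL-NAc and -0.94 (SE 0.30) in PL-BLA, and the one that rose was Srd5a1, a steroid 5-alpha reductase, at 0.67 (SE 0.26), by the authors' deposited table. The adrenal enzyme genes Cyp11b1 and Cyp21a1 and the plasma carrier gene Serpina6 were listed at 0 in each of the authors' deposited tables. Of 12 other nuclear and steroid receptor genes, 4 rose and 2 fell in PL-NAc, 3 rose and 4 fell in PL-BLA, and 1 of 10 tested rose and 1 fell in PL-VTA, in the authors' deposited table. Their medians were -0.15, -0.17 and -0.18. Beside the counts of both lists, 21.4%, 20.8% and 11.0% of all genes tested were called higher and 21.7%, 20.2% and 10.5% lower. The thyroid hormone receptor gene Thra was 0.69 (SE 0.07) in PL-NAc in the authors' deposited table. It was 0.20 (SE 0.17) in PL-BLA and 0.35 (SE 0.15) in PL-VTA, not called in either. Thrb was 0.43 (SE 0.09), 0.46 (SE 0.10) and 0.65 (SE 0.17) in PL-NAc, PL-BLA and PL-VTA, called in each, by the authors' deposited table. The orphan receptor gene Esrrg was -1.51 (SE 0.19) in PL-NAc and -1.21 (SE 0.18) in PL-BLA in the authors' deposited table. Esrra was -0.43 (SE 0.11) in PL-BLA and -0.52 (SE 0.19) in PL-VTA, both called, in the authors' deposited table. Among the retinoid X receptor genes, Rxrb was 0.45 (SE 0.07) in PL-NAc and 0.41 (SE 0.08) in PL-BLA in the authors' deposited table. Rxra was -0.69 (SE 0.14) in PL-NAc and -1.08 (SE 0.15) in PL-BLA, both called, in the authors' deposited table.

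The genes with the most similar pattern were sought among 11870 with a mean of at least 50 in each table, by Euclidean distance over the 3 log2 fold changes. Nearest to Crh were Elovl2 (distance 0.05) and Lats2 (0.06), and nearest to Crhr1 were Slit1 (0.04) and Eno1b (0.06). For Crhbp they were Hs3st1 (0.11) and Lypd6b (0.12), for Nr3c1 Man1a2 (0.04) and Ccdc92b (0.04), and for Nr3c2 Hpgd (0.10) and Cbr3 (0.15). For Fkbp5 they were Spred3 (0.10) and Arpp21 (0.11), for Hsd11b1 Dnm2 (0.06) and Ppp1r15b (0.07), and for Fkbp4 Cdk7 (0.02) and Zfp281 (0.03). Among the 8 themselves, Nr3c1 and Hsd11b1 were closest (0.35), followed by Fkbp5 and Fkbp4 (0.56). Crh and Crhbp lay 0.76 apart, and the receptors Nr3c1 and Nr3c2 0.92. Each distance rests on 3 values and is a description.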

How the data were processed

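Polysome-bound and total RNA of 16 libraries in 6 groups was sequenced, per the labels' protocols. The submitters' processing notes name STAR 2.3, featureCounts and DESeq2 as tools, and mm10 and GRCm38 as builds. Annotation release, strand setting and model formula are not stated in these sources. The kits named in the labels' protocols do not mark strand. Per the file headers, the signal used as a level is a mean of normalized counts over the IP and Input libraries of a projection. The authors deposited each fold change on the log2 scale with a standard error. The direction, IP over Input, was read from glial and mitochondrial transcripts being negative, so the signs of glial markers are no finding. The score is the Wald statistic deposited by the authors, equal to the fold change over its standard error when recomputed. The p-values and adjusted p-values are those deposited by the authors. Only the adjusted p is blank throughout below a mean of 1.82, 2.39 and 8.58 in the 3 tables (PL-NAc, PL-BLA, PL-VTA). Of all counts, 0.240%, 0.227% and 0.235% were in rows with no symbol.

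Computed here with Python 3.11.15, pandas 2.3.3 and scipy 1.17.1 were 95% intervals, percent of Input, approximate levels, differences between projections (two-sided Wald z, Benjamini-Hochberg adjusted over genes with a p in both tables and an adjusted p in at least 1) and exon lengths from GENCODE M21 (GRCm38). The difference test was run on simulated normal fold changes with the deposited standard errors. Its own model assumes the same, so this checks the calculation only and not the standard errors. The 8 genes and all lists were chosen with earlier results of these data known. Named genes were the 8, up to 3 called genes with the smallest adjusted p per list and projection, the 2 nearest in pattern, and reference markers; the few others are named as exceptions. Abcb1a is on both the transport and the vascular list. Alternatives were other adjustments, thresholds and centrings, and, chosen after seeing the data, undoing the shrinkage.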

Additional observations from a re-analysis of the deposited data

Results flagged for a closer look

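In 3 cases the enrichment of a gene differed between projections by the test of the difference itself. Nr3c2, the mineralocorticoid receptor gene, was lower relative to Input in PL-NAc than in PL-VTA by a difference of -1.22 (SE 0.33, adjusted p 0.0106, Wald z on DESeq2 estimates), and lower in PL-BLA than in PL-VTA by -1.12 (SE 0.32, adjusted p 0.0167, Wald z on DESeq2 estimates). Crhr1, the CRH receptor gene, was higher in PL-BLA than in PL-VTA by 0.88 (SE 0.27, adjusted p 0.0331, Wald z on DESeq2 estimates). These differences rest on the 2 IP and 2 Input libraries of PL-VTA, whose values in single libraries were not analysed here.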

How the results depend on the processing

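No paired analysis was possible because the deposited tables hold 1 value per comparison and none per library; for the same reason no replicate was left out. Counts of called genes among the 8 changed as follows. At an adjusted p under 0.01, 7 became 6 in PL-NAc and 3 became 1 in PL-VTA. With at least 1.5-fold as a second threshold, 7, 6 and 3 became 5, 4 and 2, and adjustment over all genes with a p left 2 in PL-VTA. Between projections, 1 and 2 differences from PL-VTA (PL-NAc and PL-BLA) became 0 and 0 at an adjusted p under 0.01. Between PL-NAc and PL-BLA 0 became 1, Fkbp5, with genes of a mean of at least 50 only, and 1 with the shrinkage undone as well; these settings took PL-BLA against PL-VTA from 2 to 3. Centred on excitatory markers, whose medians were 0.52, 0.41 and 0.16, 2 genes in place of 1 differed between PL-NAc and PL-VTA, and between PL-BLA and PL-VTA Crhr1 lost its call (0.63) while Fkbp5 gained one (-0.90). In PL-VTA that centring reversed the uncalled values of Crhr1 (-0.058), Fkbp5 (-0.078) and Fkbp4 (-0.019), and for Crhbp the uncalled difference between PL-NAc and PL-VTA (-0.26). It also brought Fkbp5 in PL-NAc (-0.60) and Hsd11b1 (-0.74) and Fkbp4 (-0.43) in PL-BLA past the threshold. The centring moves all genes of a table alike, and the share of all genes passing after it was not analysed here. Undoing the shrinkage, with its strength taken from the largest SE of each table, moved Crh in PL-VTA most, from 45.3% to 35.2% of Input; it keeps each fold change's sign and p by construction.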

Other observations

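Outside the marker lists, 7 genes of the pathway lists differed between PL-NAc and PL-VTA and 5 between PL-BLA and PL-VTA by the test of the difference. All of them are named here. Tested were 18 chaperones, 12 coregulators, 24 glucocorticoid-induced genes, 9 genes of corticosteroid synthesis and transport and 12 other receptors. Of the stress peptide list 7 and 8 were tested in these 2 pairs. Over all genes, 2.84% and 3.89% passed, and the counts are a description. Bcl6, a transcriptional repressor on the glucocorticoid-induced list, had log2 fold changes of -0.53, -0.83 and 0.81 in PL-NAc, PL-BLA and PL-VTA, each of them called, in the authors' deposited table. Its differences from PL-VTA were -1.34 (SE 0.25, adjusted p 1.0e-05) and -1.64 (SE 0.25, adjusted p 2.8e-08) by the Wald z on DESeq2 estimates. Cdkn1a, the cell cycle inhibitor p21, went the other way, at 0.89, 0.82 and -0.56 in the authors' deposited table, the last not called. Its differences from PL-VTA were 1.45 (SE 0.25, adjusted p 8.8e-07) and 1.38 (SE 0.26, adjusted p 1.2e-05) by the Wald z on DESeq2 estimates. The coregulators Ppargc1a and Nrip1 were lower relative to Input in PL-NAc than in PL-VTA by -1.12 and -0.93, and in PL-BLA by -1.20 and -0.99, with adjusted p of 2.4e-05, 0.00314, 3.4e-06 and 7.2e-04 by the Wald z on DESeq2 estimates. Adcyap1 was lower by -0.89 and -0.86 (adjusted p 0.0143 and 0.0136, Wald z on DESeq2 estimates). Tsc22d3 and Fam107a differed from PL-VTA in PL-NAc, by -0.62 and -0.74 (adjusted p 0.00362 and 0.00451, Wald z on DESeq2 estimates). Between PL-NAc and PL-BLA, Fam107a (-0.75, adjusted p 7.2e-06) and Glul (-0.53, adjusted p 0.00865) differed by the Wald z on DESeq2 estimates.

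The estrogen receptor gene Esr1, looked up after its values were seen, was higher in the IP of PL-NAc at 0.95 (SE 0.27) and of PL-BLA at 1.01 (SE 0.27), and was not called in PL-VTA at 0.21 (SE 0.41), in the authors' deposited table. Its means were 66.5, 78.4 and 58.8 in the authors' deposited table. The differences of Esr1 between projections did not pass the test, as no gene of that list did in any pair.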
